A study of Mus musculus with 2 samples.

Results

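Immediate early genes and MAP kinase phosphatases were followed in hearts of mice with a high-fat diet and an infarct. The group was chosen by a list of gene symbols and holds 50 of the 24346 genes in the data, all present in both libraries. It takes in the AP-1 factors of the FOS and JUN families, their ATF and small MAF partners, and the EGR, NR4A and KLF transcription factors. Myc, the IER, BTG, ZFP36 and GADD45 genes, the dual-specificity phosphatases (DUSPs) and several inhibitors of signalling complete it. RNA sequencing was done on 2 libraries of frozen heart tissue, both carrying an age label of day 14 whose starting event is not named. The treated animals received probucol, a cholesterol-lowering antioxidant, and the comparison library came from hearts without it. High-fat diet and infarction are common to both groups. The sources used here give no strain, genotype, sex or heart region, and no number of animals per library. The value columns carry the further marks HypoE and CM, which the labels do not explain and which were not interpreted. The series title concerns dendritic cells that carry XCR1 and the activation of helper T cells after infarction. With a single library on each side, differences have no replicate check and describe these libraries rather than the treatments.

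Immediate early genes are transcribed within minutes of a stimulus, from factors that already sit in the cell, without new protein synthesis. Growth factors, stretch, cytokines and stress reach them through the MAP kinases ERK, JNK and p38, which act on the serum response factor SRF and its ELK partners, on CREB and on JUN. Their mRNAs are short-lived, and many of their products act as brakes: DUSPs remove phosphate from MAP kinases, and ZFP36 proteins speed the decay of AU-rich mRNAs. In the heart they are known to respond to pressure, catecholamines and ischaemia in muscle cells, and to inflammatory signals in macrophages, fibroblasts and endothelium.

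RefSeq promoter sequences (GRCm38.p6) matched 39 of the 50 genes, and the 250 bases upstream of each start were searched on both strands. The other 11 genes were not searched: Fosl1, Egr1, Egr3, Klf10, Myc, Ier2, Zfp36l2, Dusp4, Nfkbiz, Sik1 and Arc. Motifs further upstream were not searched either, so a gene without a match may still carry the motif. The CREB site TGACGTCA was present for 5 of the 39 genes (12.8%), against 1.77% of 27025 genes. Its core TGACGT, which every full site also contains, was found in 35.9% against 7.29%. The EGR motif GCGNGGGCG was found in 35.9% against 5.33%, and the CArG box, the DNA element of SRF, in 7.69% against 1.62%. The TATA motif TATAAA (20.5% against 14.3%) and the AP-1 motif TGANTCA (5.13% against 7.82%) were closer to the level of all genes. A gene with several starts was counted once if any of its windows held the motif, and a match is a description of letters, not a bound site.

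Stretches from 7 of these promoters follow as examples, chosen after the ratios between the libraries were seen. Motifs are in capitals: the CREB core and the TATA motif in Fos, the CArG box in Egr2, Zfp36 and Dusp5, the full CREB site in Dusp1 and Btg2, and the EGR motif in Btg2 and Nr4a1, where it lies on the other strand. All run 5′ to 3′ along the gene. For Zfp36 and Dusp5 only 30 bases are shown, because annotated exons, of the gene itself or of others, cover parts of the region.
Fos, chr12:85473790-85473889, plus strand: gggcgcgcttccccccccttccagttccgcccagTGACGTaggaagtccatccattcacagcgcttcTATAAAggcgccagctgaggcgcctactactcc
Egr2, chr10:67537466-67537565, plus strand: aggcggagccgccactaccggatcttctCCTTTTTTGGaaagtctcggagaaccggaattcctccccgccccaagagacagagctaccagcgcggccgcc
Zfp36, chr7:28379262-28379291, minus strand: ccgccCCATAAAAGGagaaagctcctgctg
Dusp5, chr19:53529058-53529087, plus strand: aatacCCATATTTGGCCTTATATGGgcact
Dusp1, chr17:26508520-26508619, minus strand: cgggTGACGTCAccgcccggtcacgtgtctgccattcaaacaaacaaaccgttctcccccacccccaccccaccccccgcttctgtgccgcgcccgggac
Btg2, chr1:134079222-134079321, minus strand: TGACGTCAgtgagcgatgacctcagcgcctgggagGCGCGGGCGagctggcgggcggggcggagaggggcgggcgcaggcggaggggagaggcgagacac
Nr4a1, chr15:101266746-101266845, plus strand: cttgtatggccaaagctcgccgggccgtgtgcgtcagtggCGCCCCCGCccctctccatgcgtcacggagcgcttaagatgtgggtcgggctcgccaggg

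Levels are FPKM, fragment numbers divided by transcript length and library size, so different genes can be compared per length. The difference between libraries is given as a log2 ratio, probucol over untreated, after adding 0.5 FPKM to both values. Genes with a mean of at least 0.5 FPKM count as measured, which holds for 12882 genes. For genes with 1 RefSeq transcript most low values, 70.9% with probucol and 73.0% without, fell on steps of whole fragments. From these steps fragment numbers were recovered by rounding, also for genes whose values lay off a step. In a transcript of 1 kb effective length, 1 FPKM stood for 6.7 fragments with probucol and 7.48 without it, so the depths were similar. Ratios of fragments carry an exact Clopper-Pearson 95% interval, on the FPKM scale and without the added 0.5 FPKM. Such intervals cover counting error only.

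Across the group, a set of inducible factors was lower in the probucol library and no gene was at least 1.5-fold higher. Of the 50 genes, 44 were measured, 13 of them were at least 1.5-fold lower (29.5%) and 0 were at least 1.5-fold higher. Of all measured genes, 12.0% were lower by that much and 5.52% higher. At least 2-fold lower were 5 genes of the group, Fos, Egr1, Socs3, Myc and Egr2, and 0 were 2-fold higher, against 5.14% and 1.07% of all measured genes. This count depended on the settings: it was 3 with 1 FPKM added in place of 0.5, without Egr2 and Myc, and 8 with both libraries scaled to the same FPKM total, when Junb, Atf3 and Csrnp1 joined. The remaining 8 of the 13 were Junb, Atf3, Csrnp1, Dusp6, Nfkbiz, Gadd45g, Ier3 and Nr4a1. The median log2 ratio was -0.32, with 34 of 44 genes below 0, while the median of all measured genes was 0.01. The FPKM of the 50 genes summed to 623 with probucol and 745 without.

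**Figure D1:**
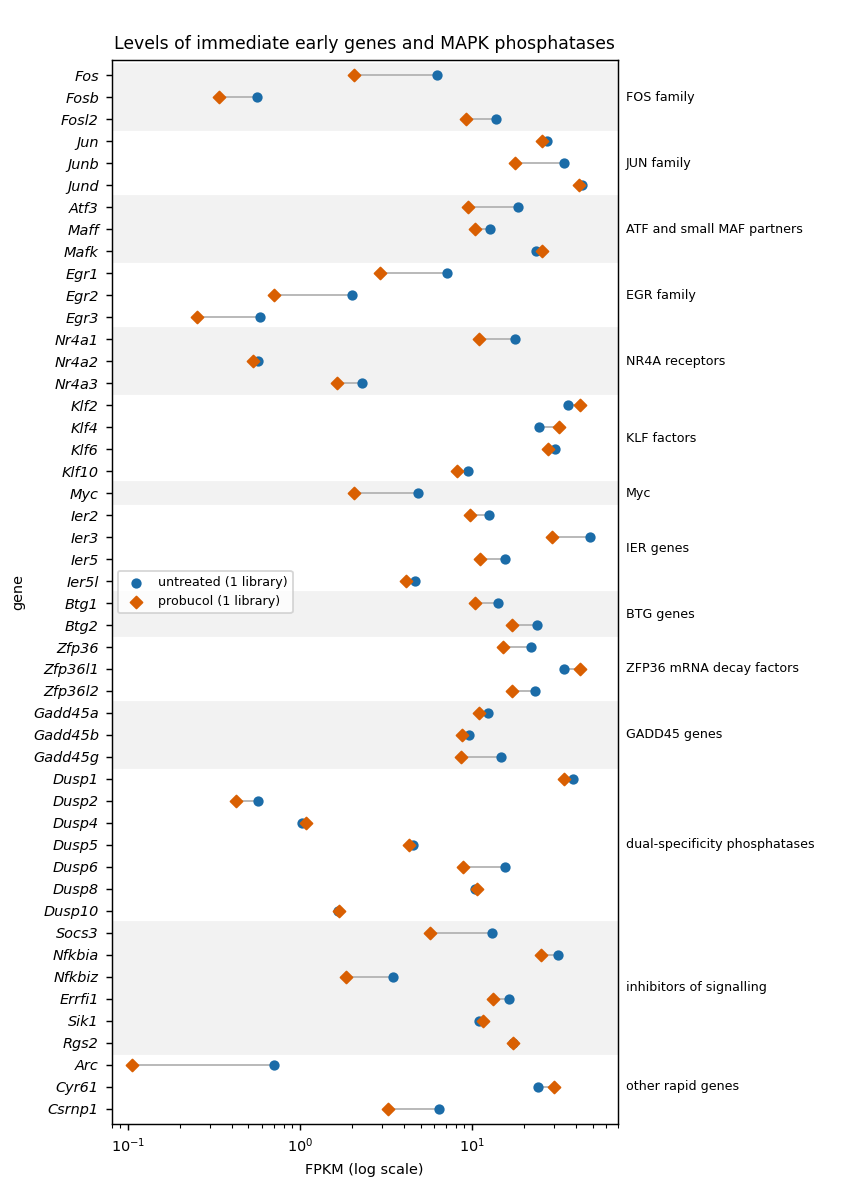
FPKM (log axis) of the 48 genes listed above 0 in both libraries, grouped by family; each circle is the untreated library and each diamond the probucol library. Fos, Egr1, Myc, Socs3 and Arc show wide gaps with probucol on the left, while Jun, Jund, Dusp8 and Rgs2 nearly coincide.

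In the FOS family, whose proteins pair with JUN proteins to form AP-1, the inducible Fos was much lower and the steadier Fosl2 moderately so. Fos (chr12:85473890-85477273) had 2.06 FPKM in the probucol library, from 26 fragments, and 6.25 FPKM in the untreated library, from 89. Its log2 ratio of -1.40 was the lowest of the 44 measured genes of the group, and its fragment ratio lay between 0.202 and 0.509. Fosl2, which encodes FRA2, had 9.24 against 13.7 FPKM. Its log2 ratio of -0.54 stayed inside the 1.5-fold limit, although its interval of 0.594 to 0.766, from 392 and 648 fragments, lay below 1. Fosl2 was the main FOS transcript in both libraries and made up 79.4% of the family's FPKM with probucol and 66.2% without. Fosb, with 0.335 against 0.563 FPKM, was below the filter. Fosl1, which encodes FRA1, was listed at 0 with probucol and had 0.179 FPKM without. That value comes to about 2 fragments (2.21 before rounding, so not on a step). A count of 0 allows up to 3, which leaves the pair undetermined at this depth.

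The JUN genes, which can form AP-1 alone or with FOS proteins, differed among themselves. Junb (chr8:84974484-84978718), often an antagonist of JUN in growth control, had 17.6 FPKM with probucol against 34.0 without, from 188 and 406 fragments, a log2 ratio of -0.93. Jun had 25.3 against 27.2 FPKM, a log2 ratio of -0.11 with an interval of 0.821 to 1.04. Jund, the constitutive member, had 41.7 against 43.2 FPKM. The Junb interval of 0.432 to 0.616 does not overlap that of Jun. Junb made up 20.8% of the JUN family's FPKM with probucol and 32.5% without, while the Jund share was 49.3% against 41.4%. The exons of Junb overlap on the opposite strand those of Prdx2, a peroxiredoxin with 558 against 431 FPKM. No source states whether the authors counted by strand, so reads of these genes may be mixed, and the part of Prdx2 in the Junb values was not tested. In all, 13 of the 50 genes have exons that overlap a gene on the opposite strand, among them Jun, Jund, Zfp36 and Csrnp1, with noncoding partners that have no value in the data.

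Among the partners of AP-1, Atf3 was lower and the small MAF genes were not past the limit. Atf3 (chr1:191170296-191218039), a stress-induced repressor of the ATF family, had 9.46 against 18.3 FPKM from 112 and 243 fragments, a log2 ratio of -0.92. Maff had 10.3 against 12.6 FPKM (-0.28). Mafk, which like Maff encodes a bZIP protein without an activation domain, had 25.3 against 23.3 FPKM (0.12).

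EGR factors are zinc finger activators downstream of ERK and SRF, and both measured members were past the limit as lower. Egr1 (chr18:34859823-34864984), also known as Krox24 or Zif268, had 2.92 against 7.15 FPKM, resting on 55 and 151 fragments. Its log2 ratio was -1.16 and its interval 0.293 to 0.557. Egr2, a regulator of myelination and of T cell tolerance, had 0.704 against 1.99 FPKM, a log2 ratio of -1.05 that became -0.81 with 1 FPKM added. Egr3 had 0.25 against 0.585 FPKM and was below the filter, and Egr4 was listed at 0 in both. The summed FPKM of the family was 3.87 against 9.73, and Egr1 made up 75.4% and 73.5% of it, so the make-up of the family was nearly the same while its level differed.

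The NR4A genes encode orphan nuclear receptors that act without a known natural ligand, and 1 of 3 was past the limit. Nr4a1 (Nur77, chr15:101254269-101274795), which restrains inflammation in macrophages, had 10.9 against 17.8 FPKM. This log2 ratio of -0.68 rests on 166 and 301 fragments, with an interval of 0.506 to 0.746. Nr4a3 had 1.64 against 2.29 FPKM (-0.38). Nr4a2, at 0.53 against 0.57 FPKM, was close to the filter and nearly equal.

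KLF factors lay on both sides of 0, and none was past the limit. Klf2 and Klf4, which laminar flow induces in endothelium and which keep it quiescent, were slightly higher with probucol, at 42.4 against 35.9 FPKM and 32.0 against 24.4 FPKM. Their log2 ratios of 0.24 and 0.39 were inside the 1.5-fold limit, while their intervals, 1.03 to 1.35 and 1.17 to 1.48, lay above 1. Klf6 (27.5 against 30.1 FPKM) and Klf10 (8.18 against 9.45 FPKM), a target of TGF-beta, lay slightly below 0 at -0.13 and -0.20. Of the 8 endothelial markers 1 was past the limit, as lower (12.5%, against 12.0% of all measured genes). Of these markers 4 lay above 0 and 4 below, from -0.69 for Vwf to 0.40 for Tie1. Their FPKM summed to 333 with probucol and 337 without. The part of endothelial content in the Klf2 and Klf4 values was not tested. Myc (chr15:61985391-61990374), a transcription factor that drives ribosome production and cell division, had 2.05 against 4.83 FPKM, a log2 ratio of -1.06. All 8 cell cycle genes listed beside it were also past the limit as lower, with a median of -1.58. A link between Myc and these genes was not tested.

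**Figure D2:**
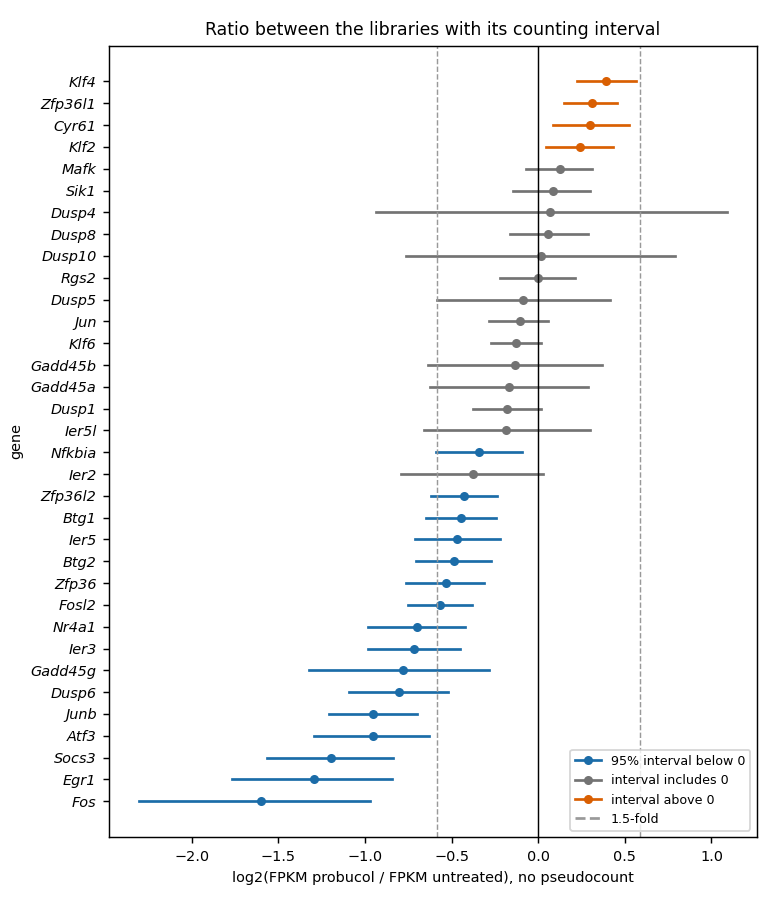
Ratio of FPKM between the libraries (log2 axis, nothing added) for the 34 measured genes with recovered fragment numbers, with the 95% counting interval as a bar; dashed lines mark 1.5-fold. Intervals lie wholly below 0 for 16 genes, with Fos, Egr1 and Socs3 lowest, and wholly above 0 for Klf4, Zfp36l1, Cyr61 and Klf2.

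Of the IER genes, short genes with few or no introns, Ier3 was past the limit. Ier3 (IEX-1), which modulates ERK signalling and cell survival, had 29.1 against 48.0 FPKM from 180 and 330 fragments, a log2 ratio of -0.71. Ier5 had 11.1 against 15.4 FPKM (-0.45) and Ier2 9.66 against 12.5 FPKM (-0.36). Ier5l, at 4.09 against 4.66 FPKM, had -0.17. All 4 lay below 0, although the intervals of Ier2 and Ier5l included 1. The anti-proliferative genes Btg1 (10.3 against 14.1 FPKM) and Btg2 (17.0 against 23.8 FPKM) had nearly equal ratios of -0.43 and -0.47, both with intervals below 1.

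The ZFP36 genes encode proteins that bind AU-rich elements and shorten the life of cytokine and immediate early mRNAs. Their ratios lay on both sides of 0. Zfp36, which encodes tristetraprolin, had 15.1 against 21.8 FPKM (-0.52), and Zfp36l2 had 17.1 against 23.0 FPKM (-0.42). Zfp36l1 was higher, at 42.2 against 34.1 FPKM (0.30), with an interval of 1.11 to 1.37 that does not overlap those of Zfp36 (0.588 to 0.806) or Zfp36l2 (0.65 to 0.847). Zfp36l1 made up 56.8% of the family's FPKM with probucol and 43.2% without, and the summed FPKM of the family differed little, at 74.3 against 79.0.

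GADD45 proteins activate the p38 and JNK cascades and respond to DNA damage and cytokines. Gadd45g was lower, with 8.57 against 14.7 FPKM from 49 and 95 fragments, a log2 ratio of -0.75. Gadd45a (11 against 12.4 FPKM, -0.16) and Gadd45b (8.75 against 9.62 FPKM, -0.13) had intervals that included 1.

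Of the 6 measured DUSPs, the feedback phosphatases of the MAP kinases, Dusp6 was past the limit and the other 5 lay between -0.18 and 0.06. Dusp6 (chr10:99263231-99267489), the cytoplasmic phosphatase selective for ERK, had 8.83 FPKM with probucol and 15.4 without. This log2 ratio of -0.77 rests on 153 and 298 fragments, with an interval of 0.468 to 0.698. Dusp1 (MKP-1), a nuclear phosphatase that prefers p38 and JNK, was the most abundant, with 33.9 against 38.5 FPKM, a log2 ratio of -0.18. Its interval, 0.771 to 1.01, lies above that of Dusp6. Dusp1 also overlaps exons of Ergic1 on the opposite strand (18.0 against 21.2 FPKM).

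The other phosphatases differed by less. Dusp5, a nuclear ERK phosphatase, had 4.26 against 4.52 FPKM (-0.08). Dusp4, a nuclear phosphatase of ERK and JNK, had 1.08 against 1.03 FPKM, and its 18 and 19 fragments give an interval of 0.523 to 2.13, too wide to detect a 1.5-fold difference either way. Dusp8 (10.7 against 10.3 FPKM) and Dusp10 (1.67 against 1.66 FPKM), both directed at JNK and p38, had log2 ratios of 0.06 and 0.01. Dusp2 was below the filter, with 4 against 6 fragments. Dusp6 made up 14.5% of the family's FPKM with probucol and 21.4% without.

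Of the inhibitors of other signals, Socs3 and Nfkbiz were past the limit. Socs3 (chr11:117966079-117970047), which blocks JAK and STAT3 signalling after interleukin 6, had 5.7 against 13 FPKM, resting on 89 and 228 fragments. Its log2 ratio was -1.13 and its interval 0.337 to 0.559. Nfkbiz, a nuclear IkB protein that is needed for a subset of secondary inflammatory genes, had 1.84 against 3.46 FPKM (-0.76). Nfkbia, the classical IkB-alpha and a direct target of NF-kB, had 25 against 31.6 FPKM (-0.34), with an interval of 0.663 to 0.937. Errfi1, an inhibitor of the EGF receptor, had 13.1 against 16.3 FPKM (-0.30). Sik1, a kinase induced by cyclic AMP, and Rgs2, which limits signalling through Gq, had 0.07 and 0.00.

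The remaining genes went different ways. Csrnp1, a nuclear protein induced by AXIN1, had 3.23 against 6.39 FPKM (-0.89). Cyr61 (also Ccn1), a matricellular protein and target of SRF and YAP, had 29.9 against 24.2 FPKM, a log2 ratio of 0.30 with an interval of 1.06 to 1.44. Arc, best known from synaptic plasticity and also made by migrating dendritic cells, had 0.105 against 0.705 FPKM and was below the filter. The 6 genes below it were thus Fosb, Fosl1, Egr3, Egr4, Arc and Dusp2, none of which had a higher value with probucol.

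By promoter motif, genes with the CREB core had a median log2 ratio of -0.30 (13 measured) against -0.17 for those without it (23 measured), and 3 and 7 of them were past the limit. Of the 5 genes with the full CREB site, Btg2, Dusp1, Dusp8, Errfi1 and Maff, 0 were past the limit, against 10 of 31 without it. Of all measured genes, with or without these motifs, 12.0% were lower by that much. The split by motif was not computed for them, so these counts cannot be read as a result about a motif. The 3 genes with a CArG box printed above had -1.05 (Egr2), -0.52 (Zfp36) and -0.08 (Dusp5), and Dusp5 carries 2 adjoining boxes. For the EGR motif the medians were -0.21 with it (12 measured) and -0.32 without (24 measured).

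By level, 5 of 11 genes with a mean under 5 FPKM were at least 1.5-fold lower, 6 of 19 between 5 and 20 FPKM, and 2 of 14 from 20 FPKM up. Among all measured genes in the same ranges the shares were 18.0%, 9.3% and 7.23%. Mean level and log2 ratio were weakly related across the 44 genes (Spearman's rho 0.28) and across all 12882 (0.20), a description over genes that share the same libraries. By counting intervals, 16 of 34 genes (47.1%) lay below 1 and 4 (11.8%) above, against 21.4% and 21.2% of the 6302 measured genes with 1 transcript. The genes had a median of 4 exons, against 7 for those 6302, while transcript lengths were close (medians of 2741 and 2817 bases). The 7 genes with at least 5 exons had a median log2 ratio of 0.06, the 22 with 2 to 4 exons -0.42 and the 5 without introns -0.36. This split was not computed for all measured genes, so it cannot be called particular to the group.

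**Figure D3:**
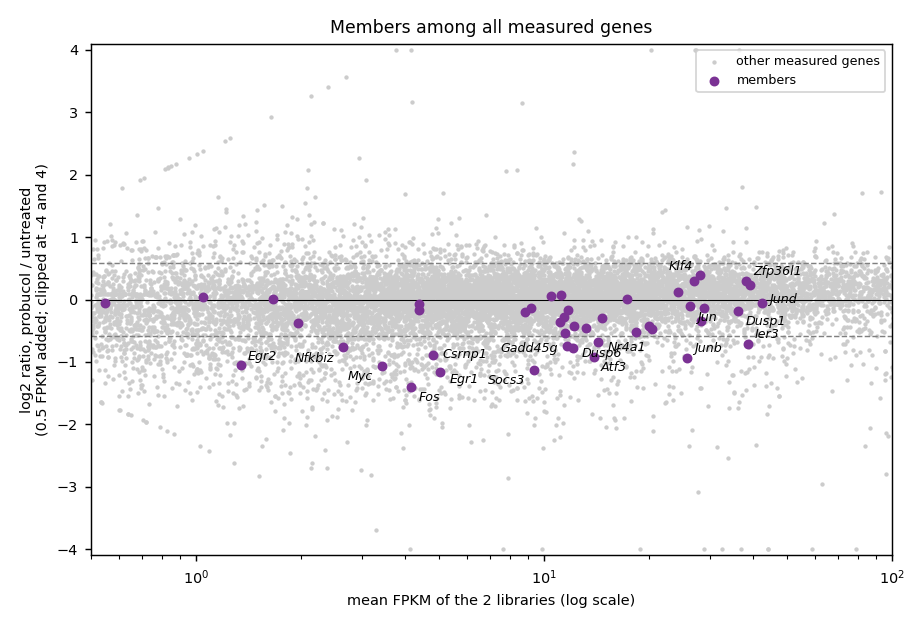
Log2 ratio (0.5 FPKM added) against mean FPKM (log axis, cropped at 100) for all measured genes in grey and the 44 measured genes of the group in purple; dashed lines mark 1.5-fold. The purple points lie below the lower line for 13 genes at all levels from Egr2 to Ier3 and cross the upper line for 0.

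Most kinases and factors that act upstream were inside the limit, as were most measured genes. For this and the further lists below, the shares of all measured genes were 12.0% lower and 5.52% higher. Of 18 ERK cascade genes, 1 was lower by 1.5-fold (5.56%) and 0 higher, and the list's median was -0.09. That gene was Rps6ka1 (-0.85), the kinase RSK1, and the other largest ratios were Rps6ka2 at 0.58, just inside the limit, and Shc1 at -0.54. Of 22 measured genes of the p38 and JNK cascade, 0 were lower and 2 higher (9.09%), Map2k6 (0.63) and Map3k5 (0.59), with a median of 0.15. Map3k4 followed at 0.55. SRF, its TCF and MRTF cofactors and CREB regulators had 0 of 18 past the limit and a median of 0.08, with Mkl1 (-0.50), Mef2a (0.34) and Creb1 (-0.33) furthest from 0. Srf itself had 34.0 against 29.6 FPKM. Of 9 Sprouty, Spred and RasGAP genes, inhibitors of the ERK pathway, 0 were past the limit, although their median was -0.32. Their largest ratios were Spred1 at -0.48, Spry4 at -0.45 and Spry1 at -0.38.

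Other phosphatases of MAP kinases had 1 of 14 lower and 1 higher (7.14% each), with a median of 0.05. These were Ptpn7 (-0.99), a phosphatase of blood cells, and Dusp18 (0.69), with Ppm1b next at 0.55. Among 14 partners and corepressors of AP-1 and EGR, 4 were lower and 0 higher, with a median of -0.31. Among the lower genes were the dendritic cell factor Batf3 (0.593 against 1.59 FPKM, -0.94), Nab2 (5.46 against 10.5 FPKM, -0.89), a corepressor that EGR factors induce, and Maf (-0.82). Of 13 genes of NF-kB, 4 were lower and 0 higher, with a median of -0.28. Bcl3 (-0.84), Tnfaip3 (-0.74) and Nfkbie (-0.71) were the lowest, all of them targets of NF-kB that feed back on it.

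A list of secondary response genes, many of which immediate early factors and NF-kB help to induce, had a median of -0.95. Of its 19 measured genes, 13 were lower and 0 higher. Which of them are induced after the immediate early genes was not tested. The lowest were the metalloproteinase Mmp3 (3.38 against 18.0 FPKM, -2.25), tenascin C (Tnc, -1.75) and the chemokine Ccl2 (-1.73). Vegfa (0.20), Ctgf (0.09) and Fhl2 (0.06) were nearly level. Heat shock genes, listed as a sign of stress or handling, ran the other way. Each of the 13 was above 0, 6 were past the limit as higher and 0 as lower, and the median was 0.54. Hspa1b (20.8 against 3.65 FPKM) and Hspa1a (20.2 against 4.08 FPKM), which share nearly all their sequence, and Hsph1 (1.14) were the highest. The part of handling in the ratios of the immediate early genes was not tested.

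**Figure D4:**
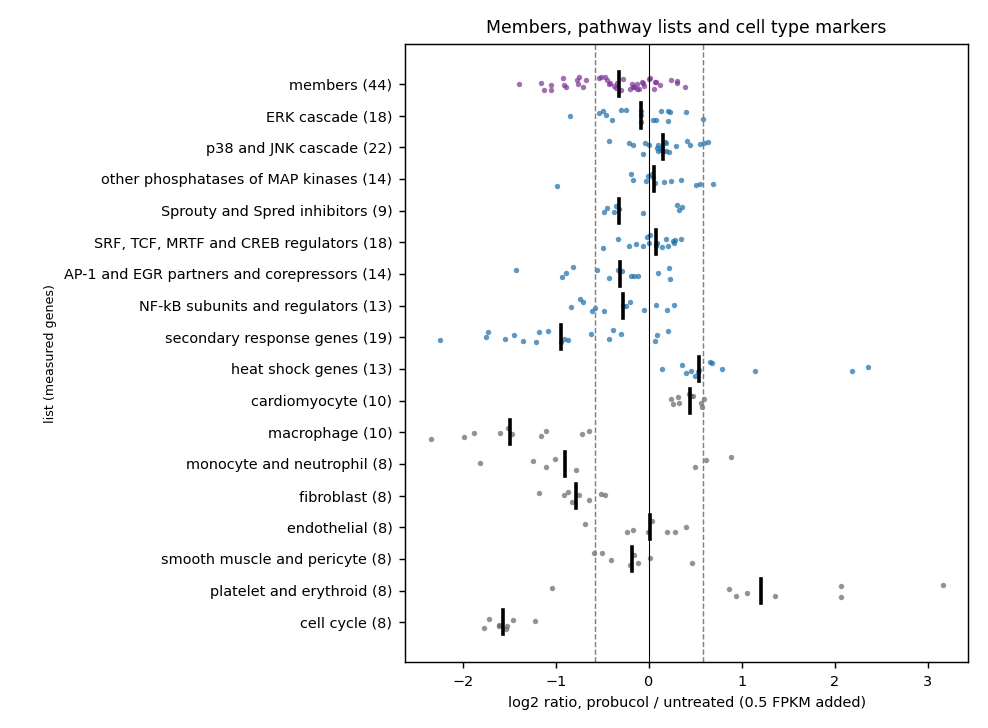
Log2 ratio (0.5 FPKM added) of each measured gene, 1 dot per gene, for the immediate early genes and phosphatases (members), 9 pathway lists and 8 marker lists; black bars are medians and dashed lines mark 1.5-fold. The members centre on -0.32, close to the Sprouty and Spred (-0.32), AP-1 and EGR partner (-0.31) and NF-kB (-0.28) lists. The ERK, p38 and JNK cascades lie near 0, the secondary response genes centre on -0.95 and the macrophage markers on -1.50.

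Markers of several cell types also differed between the libraries, and in bulk tissue fewer cells of a type cannot be told apart from less RNA per cell. Macrophage markers were past the limit as lower in 10 of 10 cases, from -0.65 for Cx3cr1 to -2.35 for Cd68, and their FPKM summed to 929 with probucol and 3090 without. Of 8 fibroblast markers 6 were lower and 0 higher, with sums of 908 and 1460. Cardiomyocyte markers, which define the tissue, were above 0 in 10 of 10 cases and past the limit in 1, Myl2. Their median was 0.44, and they summed to 70800 against 51300 FPKM. Of 8 measured markers of monocytes and neutrophils, 5 were lower and 2 higher, with S100a9 and Retnlg as the higher 2. Elane, a marker below the filter, was listed at 0 with probucol and had 0.188 FPKM without. Of 8 platelet and erythroid markers 7 were higher and 1, Pf4, lower, with sums of 3430 and 1840. The part of cell composition in the lower values of Fos, Egr1, Junb and the other genes was not tested.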

How the data were processed

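RNA sequencing of 2 heart libraries was used, 1 per group, grouped by the treatment label. Per the labels' protocols, RNA came from a miRNeasy extraction and the libraries from a stranded TruSeq mRNA kit. The authors deposited FPKM, 1 value per gene symbol and library, per the file headers. Cuffdiff 2.2.1, TopHat2 2.1.1 and Bowtie2 are named, with the build mm10, in the submitters' processing notes. Their order, the gene annotation, the strand setting and the scaling were not given in the sources used here.

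Ratios were log2((FPKM + 0.5)/(FPKM + 0.5)) without rescaling, for genes with a mean of at least 0.5 FPKM, and differences of at least 1.5-fold were counted; 1 library a side allows no test. Adding 0.5 FPKM understates differences of low genes. Fragments were recovered for genes with 1 curated RefSeq transcript of over 600 bases, using GENCODE M21 lengths less 210 bases, the value that put the most low values on whole numbers: 70.9% of 646 with probucol and 73.0% of 593 without, within 0.05 fragments. The steps were fitted only on those of these genes that have no further RefSeq transcript model. Equal fragment numbers gave an FPKM ratio of 1.12. Coordinates are GENCODE M21 on GRCm38/mm10. Python 3.11.15, pandas 2.3.3 and SciPy 1.17.1 were used, and the procedure was tested on simulated data.

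Members and lists were chosen with earlier results of these data known. Values were to be given for every measured member past 1.5-fold, for the FOS, JUN, EGR, NR4A and DUSP families, and for up to 3 genes per pathway list with the largest ratios; further genes were chosen after their values were seen. Alternatives covered the pseudocount, the filter, the scaling, the limit and the subtracted length. 1 gene of these lists is not reported here by name.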

Additional observations from a re-analysis of the deposited data

How the results depend on the processing

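The count of 13 lower genes, the count of 0 higher genes and the median of -0.32 were recomputed with other pseudocounts, filters, scalings and limits. The lower count changed by over 1.5 times in 2 settings: it was 8 of 33 with a mean of at least 5 FPKM, which leaves fewer genes (8.39% of all genes were then lower), and 5 at a limit of 2-fold. The count of 5 genes lower by 2-fold was varied after seeing the data: it was 3 with a pseudocount of 1, 2 with a mean of at least 5 FPKM and 8 with the same FPKM total, and 5 to 7 otherwise. In the other settings the count at 1.5-fold ran from 13 to 17, always including the same 13 genes, and the higher count stayed at 0 throughout. The median ran from -0.46 to -0.30. Scaling both libraries to the same FPKM total moved the median of all measured genes to -0.13, with 15.7% of them lower and 2.99% higher; it added Fosl2, Zfp36, Btg2 and Ier5 to the lower genes. Relative to that shift the group's median was still lower, at -0.46. Under that scaling Mafk (-0.03), Sik1 (-0.07), Rgs2 (-0.14), Dusp4 (-0.05), Dusp8 (-0.08) and Dusp10 (-0.10) were below 0. Klf2 (0.09), Klf4 (0.24), Zfp36l1 (0.16) and Cyr61 (0.15) kept their sign. Whether the counting intervals of Klf2, Klf4, Zfp36l1 and Cyr61 would still lie above 1 under it was not computed. The 16 genes with intervals below 1 were 16 also with 50 bases more or fewer subtracted. That setting changes the fragments of both libraries nearly alike, so it could hardly move the ratios. Intervals were not recomputed under the other scalings, which do shift the ratios. Counts of the pathway lists moved by over 1.5 times in some settings: ERK cascade genes lower were 4 and p38 and JNK genes higher 0 with equal totals. No paired analysis was possible because each group has 1 library. Fragment numbers of 18 to 32 limit Dusp4 and Dusp10, and genes below the filter rest on still fewer.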
